A study of Bos taurus with 36 samples.

Results

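The genes described here are 8 immediate-early and early response genes: *EGR1*, the Krüppel-like factors *KLF4*, *KLF6* and *KLF10*, the immediate early response genes *IER2* and *IER3*, *MYC* and *DUSP1*. Their members on the array were all probe sets to which the array's annotation gives one of these symbols and no other. Of 24128 probe sets, 11 carried the symbol of 7 of the 8 genes, among 9155 symbols given alone to a probe set. *KLF6* had no probe set with its symbol and was not analysed here. *EGR1* and *KLF10* had 2 probe sets each, *IER2* had 3, and *KLF4*, *IER3*, *MYC* and *DUSP1* had 1 each. Where a gene had several, the probe set with the highest mean over the 36 arrays stands for it.

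Immediate-early genes are transcribed within minutes of a stimulus, such as a growth factor, a hormone or stretch of a tissue, without the need for new protein. Many encode transcription factors that carry the signal on to later genes, and their mRNA is short-lived. *EGR1*, *KLF4*, *KLF10* and *MYC* encode transcription factors, whereas *DUSP1* encodes a phosphatase that switches off MAP kinases and so restrains the pathway that induces many of these genes. In the udder, milking brings oxytocin-driven milk ejection, emptying of the alveoli and release of prolactin, all of which can signal to the mammary epithelium.

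The tissue came from 6 multiparous Holstein cows. During days 1 to 21 of lactation the left side of the udder was milked 2 times a day (2×) and the right side 4 times a day (4×), and afterwards both sides were milked 2×, so that "4×" on days 23 and 40 names a side that had been milked 4× earlier. One gland of each side was biopsied on days 21, 23 and 40, after both sides had been milked together and under sedation with xylazine and local lidocaine, which all groups share. Each of the 6 groups, milking by day, therefore held 6 arrays, 1 from each cow. Biopsies came from rear glands on days 21 and 40 but from fore glands on day 23. The position of the gland and the day therefore cannot be told apart in a change from day 21 to day 23 or from day 23 to day 40. The milking treatment always fell on the right side, and side and treatment cannot be told apart either.

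All levels are log2 values and all differences are log2 differences, taken as the 4× gland minus the 2× gland within a cow and day unless another is named. A gene was called lower or higher at an unadjusted p under 0.05 in a limma fit over 24016 probe sets. The p adjusted by the method of Benjamini and Hochberg is given beside it. No member passed an adjusted p of 0.05 in any comparison between glands, and neither did any other probe set on day 21, 23 or 40. *EGR1* and *KLF10*, the latter by its dimmer probe set, are in the list of genes that the study selected on these same arrays for a change between days 21 and 23, so their values here are not independent evidence of that change.

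Transcripts of milk secretory epithelium were abundant: the mean level of its 8 marker probe sets, for caseins and other milk proteins among them, lay between 13.67 and 14.14 on all 36 arrays. The lowest of these values belonged to the 2× gland of cow 1 on day 21. Neutrophil markers (3 of 5 measured) averaged 7.37 in that gland and 7.40 in the 2× gland of cow 3 on day 21, against 5.49 to 5.84 in the 2× glands of the other cows and 5.55 to 5.92 in all 4× glands that day. The 3 measured were *S100A8*, *S100A9* and *S100A12*, and *CXCR2* and *CSF3R* had no probe set. *S100A12* is among the genes the study selected on these arrays. In tissue of mixed cells, a change in the number of cells that hold a transcript and a change in the transcript per cell cannot be told apart.

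During the period of 4× milking, on day 21, mean expression of all 7 measured genes was lower in the 4× than in the 2× gland. Over all probe sets, 44.4% had a mean difference below 0 that day. The median difference of the 7 genes was -0.30, against 0.02 for all probe sets. Of the 7, 4 were called lower (*EGR1*, *KLF10*, *IER2* and *IER3*), in a comparison in which 7.91% of all probe sets were, and the members are correlated with one another. With each cow left out in turn, 3 to 5 were called lower, where 3.35% (without cow 1) to 9.16% of all probe sets were. By the exact sign-flip permutation test over the 6 cows, which cannot give a p below 0.031, *EGR1* was the 1 member that passed. On day 23, with both sides milked 2×, 6 of the 7 mean differences were above 0, as were those of 50.6% of all probe sets. None was called higher, where 1.39% of probe sets were. On day 40 all 7 were again below 0, against 43.4% of probe sets, and 2 were called lower, where 8.86% of probe sets were.

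**Figure D1:**
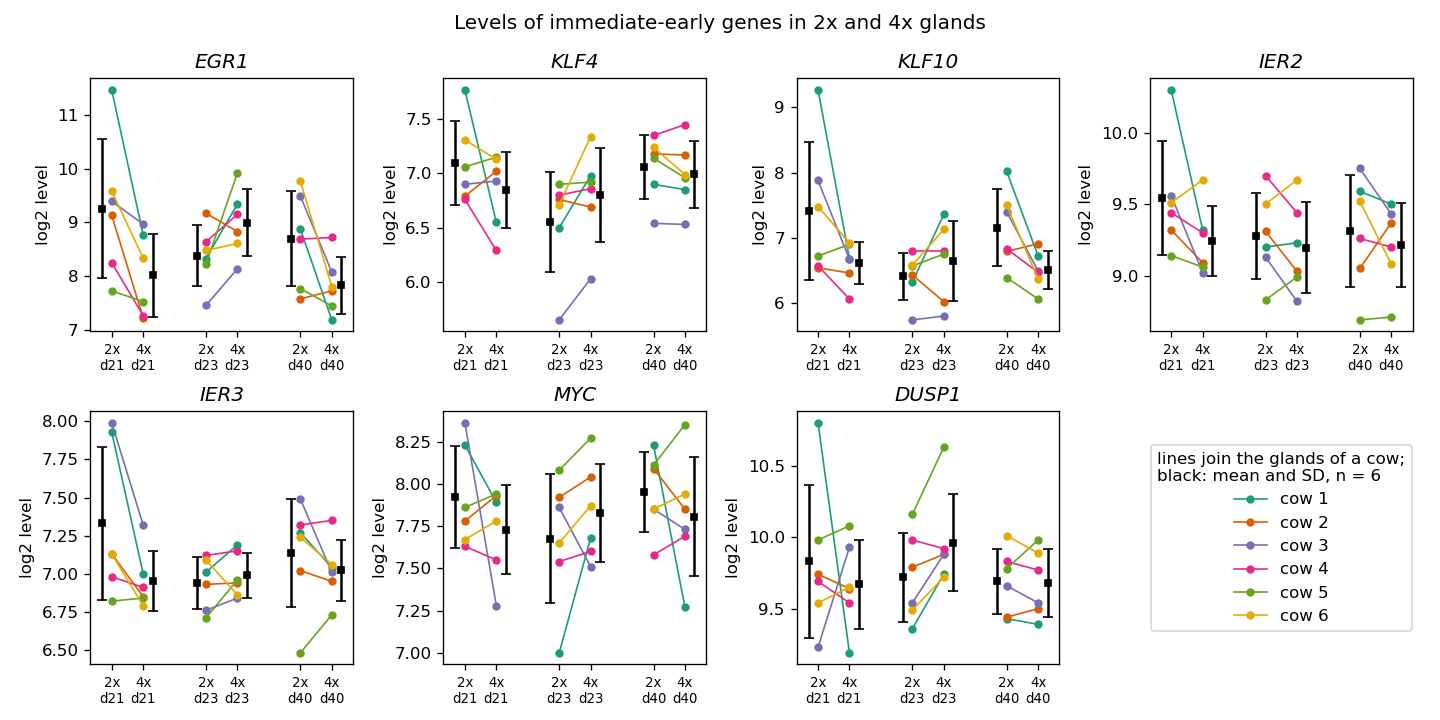
Levels (log2, vertical axes differ) of the 7 measured genes in 2× and 4× glands on days 21, 23 and 40, with a line joining the glands of each cow and the mean and SD of 6 cows in black. The ranges of the 2× and 4× glands overlapped for every gene on every day, and cow 1 held the highest day 21 2× value for *EGR1*, *KLF4*, *KLF10*, *IER2* and *DUSP1*.

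The values of the 2× and the 4× glands overlapped for each of the 7 genes on each day. Among all probe sets, the 4× values lay wholly below the 2× values for 0.0208% on day 21, 0.0167% on day 23 and 0.137% on day 40.

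Expression of *EGR1*, which encodes a zinc finger transcription factor induced by growth factors and mechanical stimuli, differed most between the glands. On day 21 its level in the 2× glands ran from 7.73 through a median of 9.26 to 11.46, and in the 4× glands from 7.23 through 7.93 to 8.97. The 2× gland of cow 1 stood highest, and the ranges overlapped, but in each cow the 4× gland was the lower of the pair. The difference was -1.24 (SE 0.30), or 2.36-fold lower in 4× glands, with an unadjusted p of 0.000484 and an adjusted p of 0.18. It ran from -2.69 in cow 1 to -0.21 in cow 5. Of all probe sets, 2.42% were lower in 6 of 6 cows that day.

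After the return to 2× milking the order of the group means was turned. *EGR1* levels on day 23 ran from 7.46 through 8.41 to 9.17 in the 2× glands and from 8.14 through 8.99 to 9.92 in the 4× glands. The difference was 0.61 (SE 0.30, unadjusted p = 0.0546, adjusted p = 1), with the 4× gland higher in 5 of 6 cows and cow 2 the exception at -0.35. This did not pass the test. By day 40 the level ran from 7.58 through 8.79 to 9.77 in the 2× glands and from 7.19 through 7.77 to 8.72 in the 4× glands. The 4× gland was then lower by a difference of -0.87 (SE 0.30, unadjusted p = 0.00879, adjusted p = 0.18). Cows 1, 3 and 6 had differences of -1.69, -1.41 and -1.96, cow 5 had -0.33, and cows 2 and 4 had 0.15 and 0.02, so the day 40 mean was made by 3 of the 6 cows.

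From day 21 to day 23 the difference in *EGR1* rose by 1.85 (SE 0.43, unadjusted p = 0.000278, adjusted p = 0.386). It rose in 6 of 6 cows, by 1.10 to 1.90 in cows 2 to 6 and by 3.70 in cow 1, and 5.65% of all probe sets were called with a rise. From day 23 to day 40 it fell by 1.48 (SE 0.43, unadjusted p = 0.00222, adjusted p = 0.417), in 5 of 6 cows. In the 4× glands *EGR1* was 0.98 higher on day 23 than on day 21 (SE 0.43, unadjusted p = 0.03, adjusted p = 0.999), in 5 of 6 cows, and in the 2× glands it was lower by a change of -0.87 (SE 0.43, unadjusted p = 0.0523), which did not pass and was negative in cows 1, 3 and 6 only. The 4× glands then fell in 6 of 6 cows from day 23 to day 40, with a mean change of -1.17 (SE 0.43, unadjusted p = 0.0108, adjusted p = 0.75), a comparison in which 3.23% of all probe sets were called lower, while the 2× glands had a change of 0.31 (SE 0.43).

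The second *EGR1* probe set did not follow the first. Its group means lay between 7.24 and 7.50, and its difference was 0.16 (SE 0.12) on day 21, -0.04 (SE 0.12) on day 23 and 0.26 (SE 0.12) on day 40, none of them called. Across the 36 arrays the levels of both probe sets had a correlation of -0.34, as a description. All values of *EGR1* above are thus from 1 of its 2 probe sets. The study also measured *EGR1* mRNA in these cows by quantitative PCR, with primers of its own. It reported a negative difference on days 21 and 40 and a positive difference on day 23. The limits of p that it gave for these were looser than 0.05. Those directions are the same as in the first probe set and opposite to those in the second. Which transcript sequence each probe set reads was not analysed here.

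Both measured Krüppel-like factors encode zinc finger transcription factors that bind GC-rich promoters. *KLF10* is induced early by TGF-β and *KLF4* is linked to differentiation and growth arrest of epithelia. *KLF10* had the second largest difference of the 7 genes. On day 21 its level ran from 6.54 through 7.10 to 9.27 in the 2× glands and from 6.06 through 6.67 to 6.92 in the 4× glands. The 2× glands were widely spread (SD 1.06), with cows 1, 3 and 6 highest, whereas the 4× glands lay close together (SD 0.32). The difference was -0.79 (SE 0.25, unadjusted p = 0.00485, adjusted p = 0.182), negative in 5 of 6 cows. Cow 1 alone gave -2.59 and cow 3 gave -1.21, and the difference was -0.43 without cow 1. The differences of the 6 cows had an SD of 1.00 that day, against 0.50 on day 23 and 0.55 on day 40, whereas the SE was shared by the days. On day 23 the levels ran from 5.74 through 6.50 to 6.80 in the 2× glands and from 5.80 through 6.77 to 7.36 in the 4× glands, with a difference of 0.24 (SE 0.25, unadjusted p = 0.36). On day 40 they ran from 6.39 through 7.12 to 8.02 and from 6.06 through 6.48 to 6.91, with a difference of -0.65 (SE 0.25, unadjusted p = 0.0175, adjusted p = 0.197), negative in 5 of 6 cows. The 2× gland was thus the higher one on average on days 21 and 40, with cow 5 on day 21 (0.18) and cow 2 on day 40 (0.12) the exceptions.

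In the 2× glands the level of *KLF10* fell from day 21 to day 23, by 1.00 (SE 0.28, unadjusted p = 0.00137, adjusted p = 0.168), with cows 1 and 3 at -2.95 and -2.13. It rose by 0.75 to day 40 (SE 0.28, unadjusted p = 0.0133, adjusted p = 0.613), a rise called for 4.07% of all probe sets, whereas in the 4× glands the corresponding changes were 0.03 (SE 0.28) and -0.14 (SE 0.28). The test of the difference between glands is the change in 4× minus 2×, which was 1.03 from day 21 to day 23 (SE 0.36, unadjusted p = 0.00881, adjusted p = 0.394) and -0.89 from day 23 to day 40 (SE 0.36, unadjusted p = 0.0214, adjusted p = 0.417). Its first change was positive in 4 of 6 cows and 3.63 in cow 1, without which it was 0.51 and no longer called (unadjusted p = 0.0526). The second *KLF10* probe set, dim with a mean level of 4.21, followed the first closely (correlation of 0.91 over 36 arrays). It gave -1.10 (SE 0.30, unadjusted p = 0.00127) on day 21, 0.15 (SE 0.30) on day 23 and -0.49 (SE 0.30, unadjusted p = 0.116) on day 40.

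*KLF4* moved less. On day 21 its level ran from 6.76 through 6.98 to 7.77 in the 2× glands and from 6.29 through 6.98 to 7.15 in the 4× glands, and the medians were alike. Its difference of -0.25 (SE 0.13, unadjusted p = 0.0697) was not called and was negative in 3 of 6 cows, with -1.22 in cow 1. The differences on days 23 and 40 were 0.25 (SE 0.13, unadjusted p = 0.0754) and -0.07 (SE 0.13). Its rise in difference from day 21 to day 23 was called, at 0.50 (SE 0.19, unadjusted p = 0.0142, adjusted p = 0.403), positive in 4 of 6 cows. It was 1.69 in cow 1, and without that cow it was 0.26 and not called (unadjusted p = 0.0905). In the 2× glands *KLF4* fell by 0.54 from day 21 to day 23 (SE 0.17, unadjusted p = 0.00355, adjusted p = 0.171), with cows 1 and 3 at -1.27 and -1.25, and rose by 0.50 to day 40 (SE 0.17, unadjusted p = 0.00625, adjusted p = 0.613) in 6 of 6 cows.

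**Figure D2:**
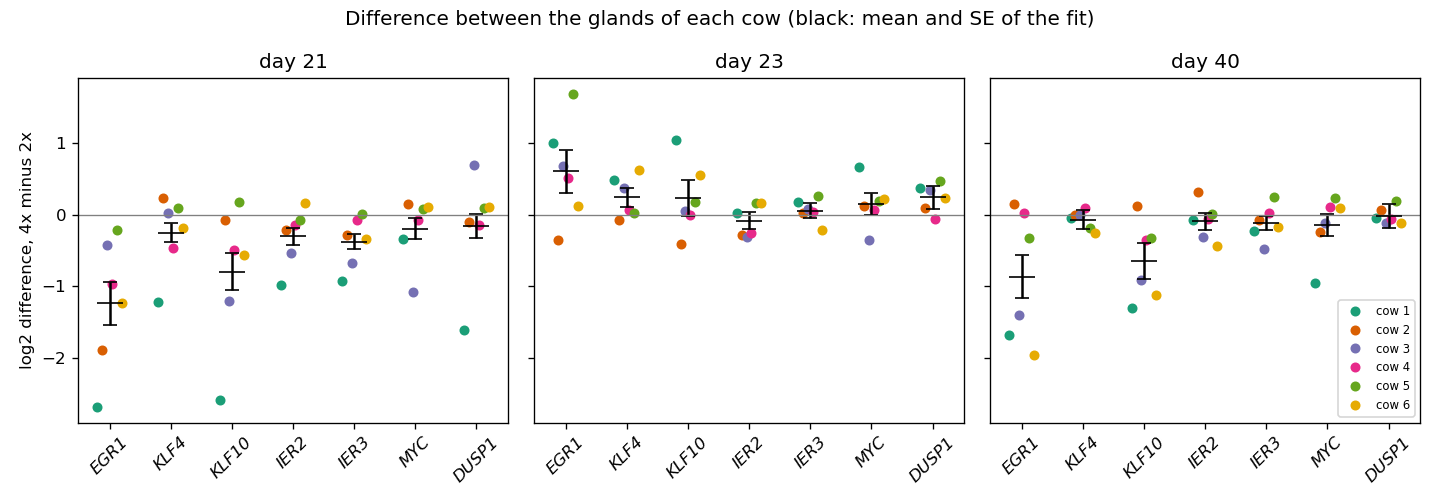
Difference in log2 level, 4× minus 2× gland, for each cow (points) with the mean and SE of the fit (black) on days 21, 23 and 40. In the first panel *EGR1* lay below 0 in 6 of 6 cows, then above 0 in 5 on day 23 and below 0 in 4 on day 40, and cow 1 gave the lowest day 21 value for every gene but *MYC*.

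*IER2* encodes a nuclear protein that acts with transcriptional regulators, and *IER3* a small stress-inducible protein that affects cell survival and ERK signalling. For *IER3* the day 21 level ran from 6.82 through 7.13 to 7.99 in the 2× glands and from 6.79 through 6.88 to 7.32 in the 4× glands. Cows 1 and 3 held the high values of the 2× glands. The difference was -0.38 (SE 0.10, unadjusted p = 0.00157, adjusted p = 0.18), negative in 5 of 6 cows, and it was 0.06 (SE 0.10) on day 23 and -0.12 (SE 0.10) on day 40. Its change from day 21 to day 23 was 0.44 (SE 0.15, unadjusted p = 0.00756, adjusted p = 0.394) and positive in 6 of 6 cows, from 0.11 to 1.11. This change was again in the 2× glands, where *IER3* fell by 0.40 (SE 0.13, unadjusted p = 0.0059, adjusted p = 0.185) with cows 1 and 3 at -0.92 and -1.23, against 0.04 (SE 0.13) in the 4× glands.

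*IER2* ran on day 21 from 9.14 through 9.47 to 10.30 in the 2× glands and from 9.02 through 9.20 to 9.67 in the 4× glands. Its difference was -0.30 (SE 0.12, unadjusted p = 0.0177, adjusted p = 0.219), negative in 5 of 6 cows, and -0.16 without cow 1. It was not called on day 23 (-0.08, SE 0.12) or day 40 (-0.09, SE 0.12), and its change from day 21 to day 23 was 0.22 (SE 0.17). The day 21 call belongs to 1 of 3 probe sets. Of the other two, the one with a mean level of 7.37 had a difference of 0.05 and the one with a mean level of 3.23, at the dim end of the array, had -0.01. On day 40 these had differences of 0.17 (SE 0.09, unadjusted p = 0.0902) and 0.17 (SE 0.08, unadjusted p = 0.0389), of which the second, from the dim probe set, was called higher. The direction of *IER2* on day 40 turned with the choice, since the mean of its probe sets gave 0.082.

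**Figure D3:**
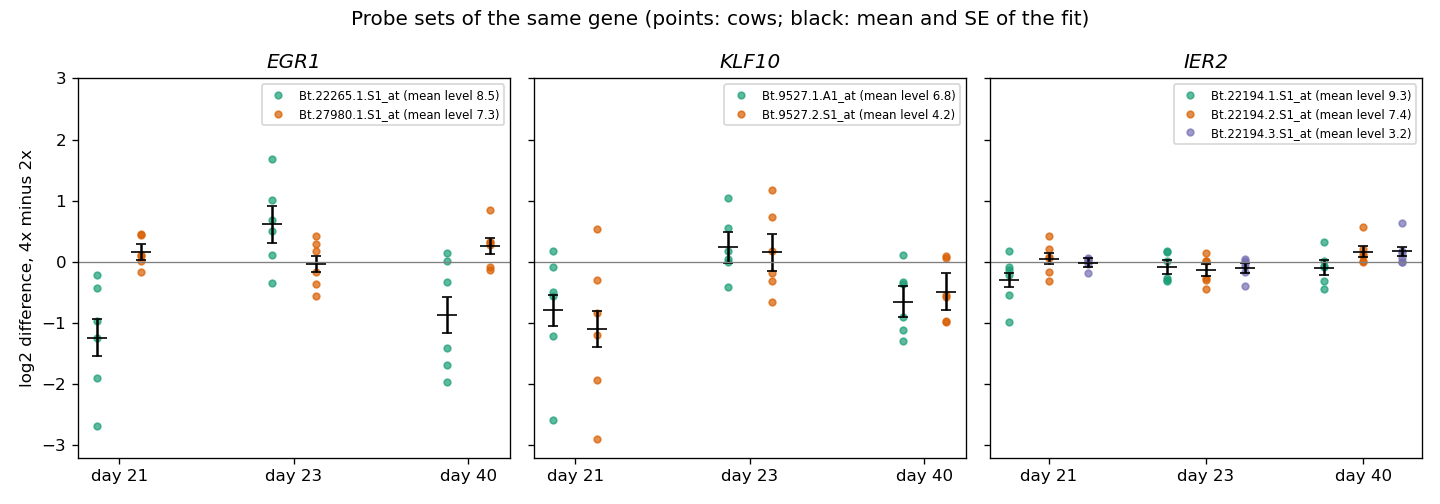
Differences in log2 level, 4× minus 2×, for all probe sets of the 3 genes with more than 1 probe set, by day (points are cows, black the mean and SE of the fit). Both *KLF10* probe sets lay low on days 21 and 40, whereas the *EGR1* probe set of lower mean level stayed within -0.04 and 0.26 on average.

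*MYC*, which encodes a transcription factor of growth and proliferation, and *DUSP1* were not called between the glands on any day. The day 21 level of *MYC* ran from 7.63 through 7.82 to 8.36 in the 2× glands and from 7.28 through 7.84 to 7.94 in the 4× glands. Its differences were -0.19 (SE 0.15), 0.15 (SE 0.15) and -0.14 (SE 0.15) on days 21, 23 and 40. The day 21 value rested on cow 3 at -1.08 and the day 40 value on cow 1 at -0.96. *DUSP1* ran on day 21 from 9.23 through 9.72 to 10.80 in the 2× glands and from 9.19 through 9.64 to 10.08 in the 4× glands. Its differences were -0.16 (SE 0.17), 0.24 (SE 0.17) and -0.01 (SE 0.17) on the 3 days. The first was -1.61 in cow 1 and turned to 0.13 without that cow. Neither gene had a called change from day 21 to day 23 (0.35, SE 0.21, for *MYC* and 0.40, SE 0.24, for *DUSP1*).

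When the 6 group means of each gene were placed in order, no gap between neighbours in the 35 steps of the 7 genes was larger than the larger of the SDs of the neighbouring groups. For *EGR1* the order was 2× day 21 (9.26 ± 1.29, SD, n = 6), 4× day 23 (8.998 ± 0.62), 2× day 40 (8.70 ± 0.89), 2× day 23 (8.39 ± 0.56), 4× day 21 (8.02 ± 0.77) and 4× day 40 (7.83 ± 0.53). What the fits called was the difference within cows. The 2× glands of day 21 held the highest group mean for *EGR1*, *KLF4*, *KLF10*, *IER2* and *IER3*.

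The change from day 21 to day 23 was also counted in each gland. In the 2× glands all 7 mean changes were below 0, with a median of -0.40 against 0.02 for all probe sets, and 3 were called lower (*KLF4*, *KLF10* and *IER3*) where 8.65% of all probe sets were. In the 4× glands 5 of 7 were above 0, with a median of 0.04, and *EGR1* alone was called higher where 1.82% of probe sets were. For the difference between glands, 4 were called with a rise (*EGR1*, *KLF4*, *KLF10* and *IER3*) where 5.65% of probe sets were, and from day 23 to day 40, 2 were called with a fall (*EGR1* and *KLF10*) where 5.58% of probe sets were. On day 40 the same 2 genes were called lower in the 4× gland, where 8.86% of probe sets were. Neither of these day 40 calls held without cow 6 (-0.65, unadjusted p = 0.0658, for *EGR1* and -0.56, unadjusted p = 0.0741, for *KLF10*) or when the glands were not paired by cow (unadjusted p = 0.0584 and 0.054), and that of *KLF10* was also lost without cow 3 (-0.60, unadjusted p = 0.0567). Nor did either hold by the exact sign-flip permutation test, which keeps the pairs (p = 0.125 for *EGR1* and 0.0625 for *KLF10*), and that of *EGR1* was lost with cow as a fixed block (unadjusted p = 0.0528).

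**Figure D4:**
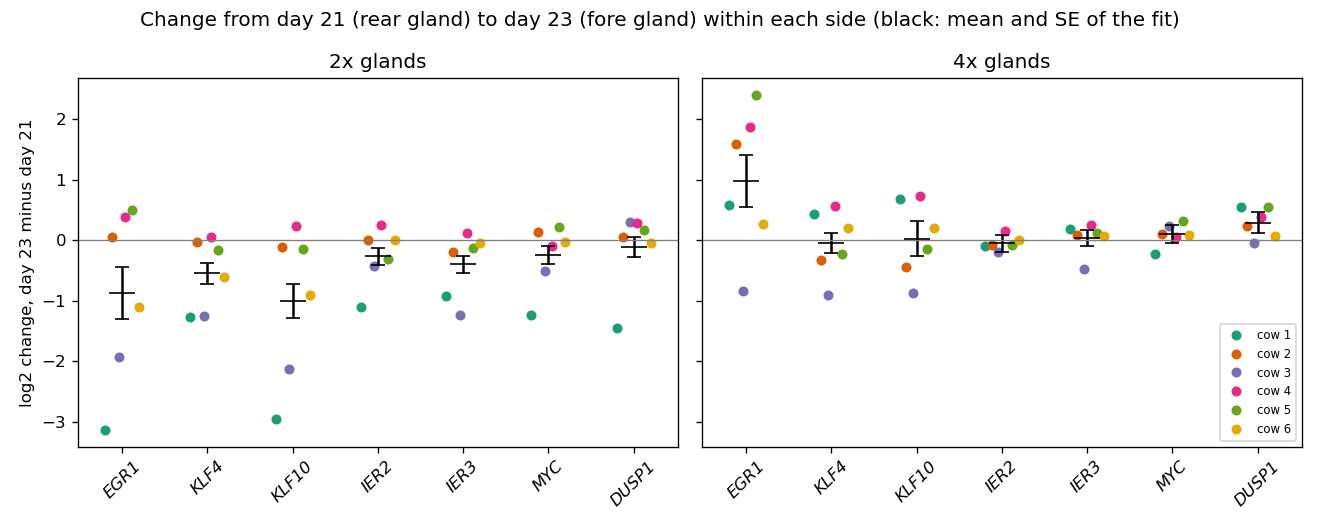
Change in log2 level from day 21 (rear gland) to day 23 (fore gland) in the 2× and the 4× glands, for each cow (points) with the mean and SE of the fit (black). In the 2× glands cows 1 and 3 lay lowest for every gene but *DUSP1*, and in the 4× glands *EGR1* lay above 0 in 5 of 6 cows.

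Cows contributed unequally to the day 21 differences. Cow 1 gave the most negative difference for 6 of the 7 genes, with a median over the genes of -1.22, and cow 3 had a median of -0.54. In cows 2, 4, 5 and 6 the median lay between -0.18 and 0.08. The neutrophil markers differed by -1.71 in cow 1 and by -1.48 in cow 3 and by -0.28 to 0.09 in the other cows, and macrophage markers (7 of 9 measured) by -0.38 and -0.51 in cows 1 and 3 against -0.08 to 0.08. Of the macrophage markers 3 were called lower and 1 higher, and of the neutrophil markers 2 lower. Of all probe sets, 7.91% were called lower and 8.02% higher on day 21. Epithelial markers were 0.45 higher in the 4× gland of cow 1 and differed by -0.06 to 0.07 in the others. Without the day 21 pairs of cows 1 and 3, *EGR1* kept its difference at -1.08 (unadjusted p = 0.0034) and was the 1 member still called on day 21. *KLF10* was then at -0.24 (unadjusted p = 0.258), *IER3* at -0.17 (unadjusted p = 0.112) and *IER2* at -0.07 (unadjusted p = 0.541), and no member was called lower from day 21 to day 23 in the 2× glands. Myoepithelial markers (5 of 6 measured) differed by -0.62, -0.23, 0.22, -0.25, 0.04 and -0.71 in cows 1 to 6 on day 21. On day 40 they differed by -0.47, -0.08, -0.48, 0.69, 0.13 and -0.40. Of these markers 1 was called lower on day 21 and 2 on day 40, with 0 called higher. On day 40, 8.86% of all probe sets were called lower. The part of other cell types in these differences was not tested. The 3′ to 5′ signal of the GAPDH control probe sets, a measure of RNA integrity, differed by -0.09 ± 0.14 (SD, n = 6) between glands on day 21, by -0.18 ± 0.13 on day 23 and by -0.18 ± 0.27 on day 40. That of the actin control probe sets differed by -0.07 ± 0.10, 0.035 ± 0.31 and -0.13 ± 0.16 on these days.

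Differences of the members tended to go together across cows and days. Over the 18 pairs of glands the 21 pairs of genes had correlations of 0.05 to 0.82, with a median of 0.61, whereas the levels over 36 arrays had correlations of -0.06 to 0.73, with a median of 0.31. These are descriptions, since the values share cows and arrays. *EGR1* was nearest in its differences to *KLF10* (0.78) and *IER3* (0.73), and farthest from *MYC* (0.33). By level over the 36 arrays, the genes most alike to *EGR1* outside the members were *RGN* (0.86), for a probe set that the study names *ERBB3*, *FOS* (0.86) and *FOXN3* (0.81). For *KLF10* they were *CAST* (0.92), *KLF11* (0.92) and *IFIT5* (0.91), for *KLF4* *GJA1* (0.81), *CD99* (0.79) and *TPT1* (0.78), and for *IER2* *ZFP36L1* (0.85), *KLF11* (0.81) and *PLEKHH3* (0.81). For *IER3* they were *LOC507550* (0.90), *CLDN4* (0.87) and *SPHK1* (0.86), and for *DUSP1* *ZFAND5* (0.79), *MAPK14* (0.76) and *HMMR* (0.75). *MYC* had no gene above 0.69, which was its value with *RAN*, followed by *SNAPC1* (0.68) and *HEATR6* (0.68).

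Other genes of the early response were counted in the same fit. Of 16 measured early response transcription factors outside the members, 6 were called lower and 0 higher in 4× glands on day 21, where 7.91% of all probe sets were called lower and 8.02% higher. The median of the 16 was -0.04. *JUNB*, a subunit of the AP-1 factor, had a difference of -0.70 (SE 0.15, unadjusted p = 9.9e-05, adjusted p = 0.18), lower in 6 of 6 cows. *JUN* had -0.46 (SE 0.16) and the nuclear receptor *NR4A1*, dim at a mean level of 4.35, had -0.28 (SE 0.10). On day 23, 0 of the 16 were called, and *JUNB* then had a difference of 0.06 (SE 0.15). On day 40, 1 was called lower, which was *JUNB* at -0.44 (SE 0.15), and 4 were called higher, where 11.6% of all probe sets were called higher and 8.86% lower. These shares depended on the scaling, and were 3.93% higher and 10.4% lower after scaling to reference genes and 7.32% and 12.2% with each array centred on its median.

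Among 18 measured early response genes that are not transcription factors, 9 were called lower and 1 higher on day 21 (7.91% and 8.02% of all probe sets), with a median of -0.34. *ZFP36L2*, which promotes decay of AU-rich mRNA, was lower in 6 of 6 cows at -0.74 (SE 0.19). The antiproliferative gene *BTG1* was at -0.56 (SE 0.16) and the anti-apoptotic gene *MCL1* at -0.36 (SE 0.10). On day 40, 5 were called lower and 0 higher (8.86% and 11.6% of all probe sets), and 8 of the 18 were called with a rise in the difference from day 21 to day 23 (5.65% of all probe sets). *ZFP36L2* is among the genes the study selected on these arrays.

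Of the other Krüppel-like factors, 4 of 14 were measured, and on day 21 they went both ways. *KLF11*, the nearest relative of *KLF10*, was at -0.75 (SE 0.25), *KLF13* at -0.25 (SE 0.12), and *KLF15*, a glucocorticoid-induced factor, was higher in 4× glands at 0.39 (SE 0.14). *KLF11* also rose in its difference from day 21 to day 23 in 6 of 6 cows, by 0.94 (SE 0.35), and the study selected it on these arrays by another probe set, as it did *JUN* and *FOS*. *JUN* and *FOS* were both among the 6 early response transcription factors called lower on day 21.

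Upstream, 14 of 24 genes of the ERK pathway were measured, 3 of them called lower and 0 higher on day 21, where, as for the lists that follow, 7.91% of all probe sets were called lower and 8.02% higher. These were the kinase *BRAF* at -0.27 (SE 0.08), lower in 6 of 6 cows, the receptor *ERBB3* at -0.22 (SE 0.08) and the ligand *AREG* at -0.34 (SE 0.15), which at a mean level of 3.11 was near the background. The value of *ERBB3* is from another probe set than the one the study names so. Of 6 measured genes in a list of phosphatases and feedback inhibitors other than *DUSP1*, which also held the EGR corepressor *NAB2*, 2 were called lower on day 21 and 2 on day 40, where 8.86% of all probe sets were. *ERRFI1*, an inhibitor of EGF receptors, was at -0.67 (SE 0.22) on day 21 and -0.54 (SE 0.22) on day 40, and *SPRY1*, an inhibitor of receptor signalling to ERK, at -0.21 (SE 0.10) and -0.35 (SE 0.10). Downstream, 6 of 9 genes known as *EGR1* targets were measured, *NAB2* again among them, with 2 called lower and 2 higher on day 21 and a median of -0.02. *F3*, which encodes tissue factor and was dim at a mean level of 4.42, was lower in 6 of 6 cows at -0.59 (SE 0.18). *ICAM1* was lower in 6 of 6 cows at -0.25 (SE 0.08) and the lipoprotein receptor *VLDLR* was higher at 0.43 (SE 0.16). Of 5 measured partners and antagonists of MYC, the antagonist *MXI1* was called lower at -0.26 (SE 0.11) and *MLX* higher at 0.18 (SE 0.08). On day 23, 0 genes were called in any of these lists.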

How the data were processed

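Mammary biopsies of 6 cows (both udder sides, lactation days 21, 23 and 40) were hybridised to 36 arrays. The authors corrected probe signals for background, normalized them and summarized them by the Robust Multichip Average (no version is given in the sources used here), and the deposited values are log2 levels for 24128 probe sets. Medians of the arrays lay between 6.04 and 6.15. Scanner files were not used here. Precision is limited by the number of arrays. A mean level under 5 (7491 probe sets) is near the background, where the background correction can compress differences.

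Of these, 112 control probe sets were left out. Groups and days came from the labels, which name no cow, and the replicate number in them was taken as the cow. In the annotation of the array, 13318 probe sets have 1 symbol, 86 have several and 10724 have none. limma 3.58.1 (R 4.3.3) fitted the 18 differences within cows by lmFit and eBayes, as 1 mean per day and a common spread, and changes within a gland on the 36 arrays with cow as a fixed block. P-values were adjusted over 24016 probe sets, and a gene was called at an unadjusted p under 0.05. The exact test was a two-sided sign-flip permutation test (64 flips). Glands of a cow were paired by its number, which marks the same animal, and the arrays of each pair, after group means were removed, had correlations of 0.242 to 0.665 in 18 of 18 pairs. Arrays of different biopsies had correlations of at most 0.997, so none was a duplicate.

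The members, gene lists, marker lists and tests were chosen with earlier results of these data known. Named are all members and their probe sets, at most 3 genes with the smallest unadjusted p on day 21 from each other list, and the 3 genes most correlated in level with each member. For the other lists a gene was represented by its probe set of highest mean. Markers of T cells, endothelium, fibroblasts, adipocytes and myoepithelium were also measured. *LGB* and *PAEP* among the epithelial markers share a probe set, which was counted once. Alternatives were no replicate block, a fixed or random block, each day fitted separately, no moderation, trend and robust moderation, the sign-flip test, scaling to reference genes, centring on the median, dim probe sets left out, the mean over a gene's probe sets, and fits without each cow. Fits without cow 1 on day 21, or without cows 1 and 3 on that day, were chosen after seeing the data. The fit was tested on simulated data. Python 3.11.15 with numpy 2.4.6, pandas 2.3.3 and matplotlib 3.10.9 made the tables and figures.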

Additional observations from a re-analysis of the deposited data

Results flagged for a closer look

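Values far from the rest of their set of 6 were looked for in 63 sets, the levels of the 7 genes in 6 groups and their differences on 3 days. Of these, 4 held a value whose gap to its nearest neighbour was a larger share of the range of the set than Dixon's critical value for 6 values, and chance gives about 1 in 20. In the 2× glands of day 23, *KLF4* was lowest in cow 3 at 5.65, with the others between 6.50 and 6.90. *IER2* was highest in the 2× gland of cow 1 on day 21 at 10.30, with the others between 9.14 and 9.56. *DUSP1* was highest in the 4× gland of cow 5 on day 23 at 10.63, with the others between 9.72 and 9.92. Its difference on day 21 was -1.61 in cow 1, with the others between -0.15 and 0.69.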

How the results depend on the processing

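Counts of called members out of 7 were recomputed under each alternative. Shares in brackets are those of all probe sets called in the same direction and fit. The sign-flip test was run on the listed genes only and has no such share. On day 21 the 4 members called lower became 1 (*EGR1*) by the exact sign-flip permutation test and 1 (*EGR1*) without the day 21 pairs of cows 1 and 3 (1.96%). On day 23 the 0 members called higher became 3 (*EGR1*, *KLF4* and *DUSP1*) with each day fitted separately (1.76%), 3 without the day 21 pair of cow 1 (1.79%), and 3 without those of cows 1 and 3 (1.84%). The pooled spread falls when these pairs are left out. On day 40 the 2 called lower became 0 with no replicate block (4.09%), 1 (*KLF10*) with cow as a fixed block (7.44%), 0 by the sign-flip test and 1 (*KLF10*) by the mean of the probe sets (8.84%). Of the 4 whose difference rose from day 21 to day 23, 2 were called with no replicate block (2.54%) and 2 by the sign-flip test. Of the 2 whose difference fell from day 23 to day 40, 1 was called with no replicate block (2.08%), 0 by the sign-flip test and 1 by the mean of the probe sets (5.57%), while 4 were called with each day separately (6.12%) and 4 without the pairs of cows 1 and 3 (8.04%). The 3 called lower from day 21 to day 23 in 2× glands became 0 by the sign-flip test and 0 without the pairs of cows 1 and 3 (1.89%). The 1 called higher in 4× glands became 0 with no moderation (1.74%) and 0 by the sign-flip test, and 2 with each day separately (4.29%), 2 without the pair of cow 1 (1.87%) and 2 without the pairs of cows 1 and 3 (2.88%).

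With each cow left out in turn, the counts ran from 3 to 5 on day 21, 0 to 2 on day 23, 0 to 2 on day 40 (0 without cow 6, 1 without cow 3), 2 to 5 for the rise (2 without cow 1), 1 to 2 for the fall (1 without cow 3 or cow 6), 2 to 5 in 2× glands (2 without cow 1 or cow 3, 5 without cow 4) and 0 to 1 in 4× glands (0 without cow 2, 4 or 5). The shares of all probe sets called moved too. They ran from 3.35% to 9.16% on day 21, 1.05% to 2.03% on day 23 and 4.98% to 11.2% on day 40. For the rise they ran from 2.70% to 6.40% and for the fall from 2.01% to 8.16%. In 2× glands they ran from 3.31% to 11.1% and in 4× glands from 1.08% to 2.42%. Directions that turned were all of differences that were not called. *MYC* on day 21 was 0.066 without the pairs of cows 1 and 3, and *DUSP1* on day 21 was 0.13 without the pair of cow 1 and ran from -0.33 to 0.13 over the cows left out. *IER2* was 0.082 on day 40 and -0.020 in its change by the mean of the probe sets, and -0.014 in its change without the pairs of cows 1 and 3. Over the cows left out, *MYC* on day 40 ran from -0.22 to 0.0185 and *DUSP1* from -0.056 to 0.0071. Of 532 values for single members, 473 kept direction and side of the threshold, 18 gained and 32 lost the call, and 9 turned. The cause was not tested.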

Other observations

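Markers of the remaining cell types showed smaller mean differences between the glands on day 21 than those of neutrophils. The neutrophil markers differed by -0.55 ± 0.83 (SD, n = 6), lower in 3 cows and higher in 3. The T cell markers (5 of 5 measured) differed by -0.15 ± 0.09 (SD, n = 6), lower in 5 cows and higher in 0. Of these markers 2 were called lower in 4× glands, where 7.91% of all probe sets were. Myoepithelial markers (5 of 6 measured) differed by -0.26 ± 0.36, with cows 1 and 6 at -0.62 and -0.71. Markers of fibroblasts, adipocytes and endothelium differed by -0.05 ± 0.48, 0.03 ± 0.21 and 0.10 ± 0.31. On day 23 the neutrophil markers differed by 1.25 in cow 1 and by -0.32 to 0.35 in the other cows.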
